A study of Homo sapiens with 1 sample.

Results

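The epithelial-mesenchymal transition genes examined here were 10 of the 20033 protein-coding genes of the annotation: the epithelial markers CDH1 and EPCAM, the mesenchymal markers CDH2, VIM and FN1, and the transcription factor genes SNAI1, SNAI2, ZEB1, ZEB2 and TWIST1. Their accessible sites were the ATAC-seq peaks whose summit, the base of highest signal, lay inside the gene or within 100 kb of either end, which gave 157 of the 88676 peaks. ATAC-seq maps open chromatin through the insertion of sequencing adapters by the Tn5 transposase. The library was made from 786-O, a long-established human cell line of clear cell renal cell carcinoma, which according to its label carried an empty vector, although the names of the deposited peaks hold a wild-type tag. It served as the control for cells overexpressing DPF3a, an isoform of the chromatin remodelling subunit DPF3, whose library was not analysed here. There was 1 library of 1 cell line without a replicate, so the values describe this library, no p-value is given, and the spread between cultures is unknown.

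In the epithelial-mesenchymal transition, epithelial cells lose the junctions that hold them to their neighbours and gain a motile, mesenchymal form. Transcription factors of the SNAIL, ZEB and TWIST families drive the change, and SNAIL and ZEB proteins bind E-boxes with the sequence CAGGTG in the promoters of epithelial genes such as CDH1, which they repress. The ZEB factors and the microRNAs of the miR-200 family repress each other. An open promoter is a common property of active genes, but accessibility is not transcription, and RNA of these genes was not analysed here.

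Each peak is described by its fold enrichment, the read pileup at the summit over the genome-wide background of 0.941, with 1 added to both. Pileups ran from 9 to 300 in the whole list, and the lowest fold was 5.15. The median fold was 10.8 for all peaks and 12.4 for the peaks of the 10 genes, of which 29.3% had a pileup under 15, against 35.7% of all peaks. Ranges after a fold are exact Poisson 95% intervals of its pileup. They account for counting error and nothing else, and because summits are maxima the folds lean upward. How many reads were sequenced is unknown. The peak numbers ran to 111260, so 22584 numbered peaks were absent from the list, and a stretch without a peak is one without a listed peak. CDH16, a cadherin of kidney tubule cells on a list of other epithelial genes, had a promoter peak of fold 29.4 (22.3 to 38.0). It was picked after its value was seen, so it cannot check the renal label, and no other check of that label was made.

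With a promoter taken as the 1 kb before and the 100 bp after the transcription start site (TSS) of any annotated transcript, 8 of the 10 genes had a promoter peak, against 61.4% of all protein-coding genes. These were 3 of 3 mesenchymal genes, 4 of 5 transcription factor genes and 1 of 2 epithelial genes, and the exceptions were CDH1 and TWIST1. The difference of 50 percentage points between the mesenchymal and epithelial genes became 0 when the promoter reached 2.5 kb to both sides. The promoter peak of EPCAM lay at the start of a transcript far upstream of the canonical one. By a measure chosen after the data were seen, the TSS of the canonical transcript lay inside a peak for 3 of 3 mesenchymal, 4 of 5 transcription factor and 0 of 2 epithelial genes, against 57.8% of all, which is the largest difference of the definitions tried. With so few genes of each kind, these counts describe the named genes and do not extend to epithelial or mesenchymal genes in general.

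**Figure D1:**
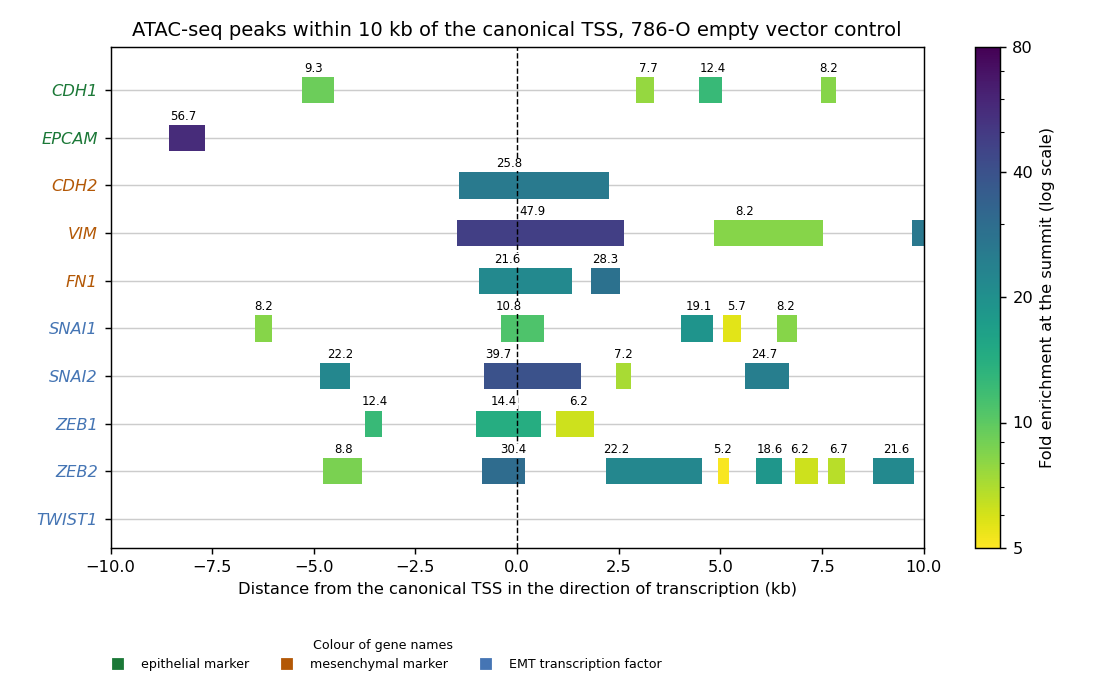
Peaks within 10 kb of the canonical TSS of the 10 genes, 1 row per gene in the direction of transcription; the horizontal axis is the distance from the TSS in kb, and each bar is a peak interval, coloured by and labelled with the fold enrichment at its summit. A wide peak covers the start sites of VIM, CDH2 and FN1, none covers those of CDH1, EPCAM and TWIST1, and the TWIST1 row is empty.

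SNAIL and ZEB proteins are known to act on epithelial genes through E-boxes in their promoters. In the window from 1 kb before to 100 bp after the canonical TSS, CAGGTG on either strand (CACCTG is the same motif read on the other strand) matched 6 times for CDH1 and 4 times for EPCAM. Neither canonical TSS lay in a peak. Of the other genes, the canonical TSS lay in a peak for ZEB1 with 4 matches, SNAI1 with 3 and SNAI2 with 1. It also did for CDH2, VIM, FN1 and ZEB2 with 0, but not for TWIST1 with 0. A relation between matches and peaks was not tested.

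CDH1 encodes E-cadherin, the adhesion molecule of epithelial junctions, on chromosome 16 (68737292 to 68835537, plus strand). None of its transcripts had a summit in the promoter. The summit nearest to the canonical TSS lay 3231 bp inside the gene, in an intron, with a fold of 7.73 (4.46 to 12.6), and the nearest upstream one at −5016 bp had 9.28 (5.62 to 14.5). The stretch without a listed peak around the TSS was 7.42 kb long, and 0 of the absent peak numbers fell in it. This was not unusual, as 39.7% of protein-coding genes had a longer one. A TSS inside a peak counted as a stretch of 0 kb, and 42.2% of genes had one longer than that.

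Inside the gene, CDH1 held 7 summits, all intronic, with folds from 7.73 to 20.1. The strongest, at 53070 bp from the TSS (68790038 to 68790906), had a fold of 20.1 (14.4 to 27.4). The strongest of the 14 peaks in the whole window lay at −29482 bp in the neighbouring CDH3, which encodes P-cadherin, with 24.2 (17.9 to 32.1). The promoter of TANGO6, the gene downstream, had a peak of 18.6 (13.1 to 25.6), so an open promoter was seen next to CDH1 but not at it. The window held 4.69 peaks per 100 kb, at the 52.7 percentile of protein-coding genes.

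EPCAM encodes an epithelial cell adhesion molecule, on chromosome 2 (47345158 to 47387601, plus strand). The gene record starts well upstream of the canonical TSS at 47369311, because longer transcripts begin there. The canonical TSS was in no peak, its nearest summit was 8223 bp away, and 26.6 kb around it held no listed peak. A longer stretch was present at 31.5% of genes, and one above 0 kb at 42.2%. Here too, 0 of the absent peak numbers fell in the stretch. At the upstream start, −24167 bp from the canonical TSS, a peak had a fold of 42.8 (34.1 to 53.0), which was at the 85.6 percentile of all 17170 promoter peaks. That peak (47344658 to 47345765) was also in the promoter of EPCAM-DT, a non-coding gene transcribed in the opposite direction. Which gene it belongs to cannot be told apart here.

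The 3 summits inside the EPCAM record all lay between its upstream and its canonical start, in introns of the longer transcripts. Their folds were 34.0 (26.4 to 43.2) at −14578 bp, 17.5 (12.2 to 24.4) at −11710 bp and 56.7 (46.6 to 68.3) at −8223 bp. The strongest peak of the window, 66.5 (55.5 to 78.9), lay at −99375 bp inside EPCAM-DT. Downstream of the canonical TSS the first summit was intergenic, at 19111 bp, with 12.9 (8.44 to 18.9). The median fold of the 13 peaks around EPCAM was 22.2, the highest of the 10 genes.

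The upstream start of EPCAM is shown because its promoter peak lay there, as the 200 bases that precede it, read 5′ to 3′ along the gene in hg38.
EPCAM upstream start, chr2:47344958-47345157, plus strand: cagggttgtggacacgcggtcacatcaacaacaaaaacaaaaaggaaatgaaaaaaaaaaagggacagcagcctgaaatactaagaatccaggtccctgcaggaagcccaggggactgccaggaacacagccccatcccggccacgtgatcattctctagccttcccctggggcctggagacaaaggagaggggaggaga
This run was 53.0% G+C with 4 CpG dinucleotides and held 0 E-boxes.

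The mesenchymal promoters that lay in peaks follow, as the 200 bases before the canonical TSS for VIM and CDH2 and as the 101 bases around the promoter summit for FN1. They are the promoters of the marker genes whose canonical TSS was covered. No capitals appear because none of them held an E-box.
VIM, chr10:17228041-17228240, plus strand: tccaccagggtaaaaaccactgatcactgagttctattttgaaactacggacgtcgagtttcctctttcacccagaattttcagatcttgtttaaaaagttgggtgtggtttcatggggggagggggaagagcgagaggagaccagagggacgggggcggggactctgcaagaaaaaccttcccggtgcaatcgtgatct
CDH2, chr18:28177131-28177330, minus strand: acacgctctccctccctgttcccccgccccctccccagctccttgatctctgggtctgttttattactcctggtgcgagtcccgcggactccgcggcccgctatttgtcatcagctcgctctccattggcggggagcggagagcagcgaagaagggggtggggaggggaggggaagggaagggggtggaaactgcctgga
FN1, chr2:215436251-215436351, minus strand: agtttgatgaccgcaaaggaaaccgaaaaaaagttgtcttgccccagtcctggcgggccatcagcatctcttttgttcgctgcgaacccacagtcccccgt
The canonical promoters of these 3 genes from 1 kb before to 100 bp after the TSS also held 0 E-boxes each.

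VIM encodes vimentin, the intermediate filament of mesenchymal cells, on chromosome 10 (17228241 to 17237593, plus strand). Its promoter peak had the highest fold of the 10 genes, 47.9 (38.7 to 58.7) at a pileup of 92, which was at the 89.5 percentile of promoter peaks. The summit lay at 375 bp, in an exon, and counted as promoter through the start of another transcript. The interval (17226759 to 17230871) was 4113 bp wide, wider than 99.7% of promoter peaks, and covered the canonical TSS. A second peak inside the gene, at 5601 bp, had a fold of 8.24 (4.84 to 13.3). Upstream, an intergenic peak at −21807 bp had 45.3 (36.4 to 55.8), and one at −11853 bp, at the promoter of the antisense gene VIM-AS1, had 39.2 (30.9 to 49.0). The intervals of these 3 strong peaks overlap.

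CDH2 encodes N-cadherin, which replaces E-cadherin in many mesenchymal cells, on chromosome 18 (27932879 to 28177946, minus strand). Its promoter peak, at −191 bp, had a fold of 25.8 (19.2 to 33.9), the 63.0 percentile, and at 3674 bp was wider than 99.5% of promoter peaks. A second promoter peak at the start of a shorter transcript, 131525 bp downstream, had 9.79 (6.01 to 15.2). The strongest peak around any of the 10 genes was intronic, at 61825 bp (28114433 to 28115763), with 67.5 (56.5 to 80.1). It exceeded the gene's own promoter peak, and their intervals did not overlap. CDH2 held 13 summits, 12 of them intronic and 1 exonic. Apart from the promoter and the strongest peak, those inside ran from 7.21 to 18.0.

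FN1 encodes fibronectin of the extracellular matrix, on chromosome 2 (215360440 to 215436073, minus strand). Its promoter peak (215434715 to 215437015) had a fold of 21.6 (15.7 to 29.2) at −233 bp, near the median of promoter peaks at the 54.4 percentile, and was shared with the divergent non-coding gene FN1-DT. It was 2301 bp wide, wider than 94.6% of promoter peaks. The strongest of 5 summits inside the gene, 28.3 (21.4 to 36.8) at 2170 bp in an intron, did not differ from it beyond counting error. The strongest peaks of the window belonged to the neighbour ATIC, an enzyme gene of purine synthesis, with 60.8 (50.4 to 72.8) at its promoter and 53.6 (43.8 to 64.9) in its body.

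**Figure D2:**
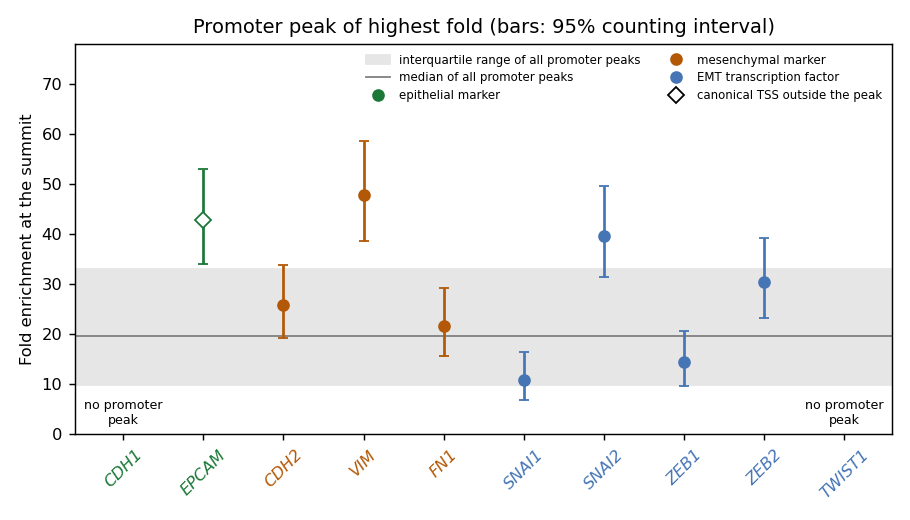
Fold enrichment (vertical axis) of the strongest promoter peak of each of the 10 genes with its exact Poisson 95% interval (counting error only), over the median of 19.6 and the interquartile range of 9.79 to 33.0 of all 17170 promoter peaks. VIM, EPCAM (open symbol, canonical TSS outside the peak) and SNAI2 lie above that range, SNAI1 and ZEB1 in its lower part, and CDH1 and TWIST1 have no promoter peak.

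In order of fold the promoter peaks ran from VIM, 47.9, through EPCAM, 42.8, SNAI2, 39.7, ZEB2, 30.4, CDH2, 25.8, FN1, 21.6, and ZEB1, 14.4, to SNAI1, 10.8. The counting intervals of all neighbours in this order overlapped. Those of VIM and CDH2, at 38.7 to 58.7 and 19.2 to 33.9, did not, so the folds of these mesenchymal markers differed by more than counting error. The background was genome-wide and copy number was not measured. The median promoter fold was 22.2 on the chromosome of VIM and 16.0 on that of CDH2, so folds on different chromosomes may not be alike in scale. All 3 mesenchymal promoter peaks were at or above the 94.6 percentile of promoter peak width, whose median was 948.5 bp, as was that of SNAI2, which was wider than that of FN1. The EPCAM peak was 1108 bp wide.

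Peak density did not separate the groups. The epithelial windows held 27 peaks, 4.99 per 100 kb, and the mesenchymal windows 48 peaks, 5.16 per 100 kb, a ratio of 1.03 with a 95% interval of 0.632 to 1.72 that covers counting error only. The transcription factor windows held 82 peaks, 5.56 per 100 kb. All 10 windows together came to 5.33 per 100 kb (4.53 to 6.23). The median density of the 10 genes was 5.22, beside a median of 4.44 over protein-coding genes with an interquartile range of 2.47 to 6.88. The median fold was 12.9 in the epithelial, 13.1 in the mesenchymal and 10.0 in the transcription factor windows. All 10 genes had at least 1 summit inside the gene record, against 65.1% of protein-coding genes, whose lengths were not matched to these.

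**Figure D3:**
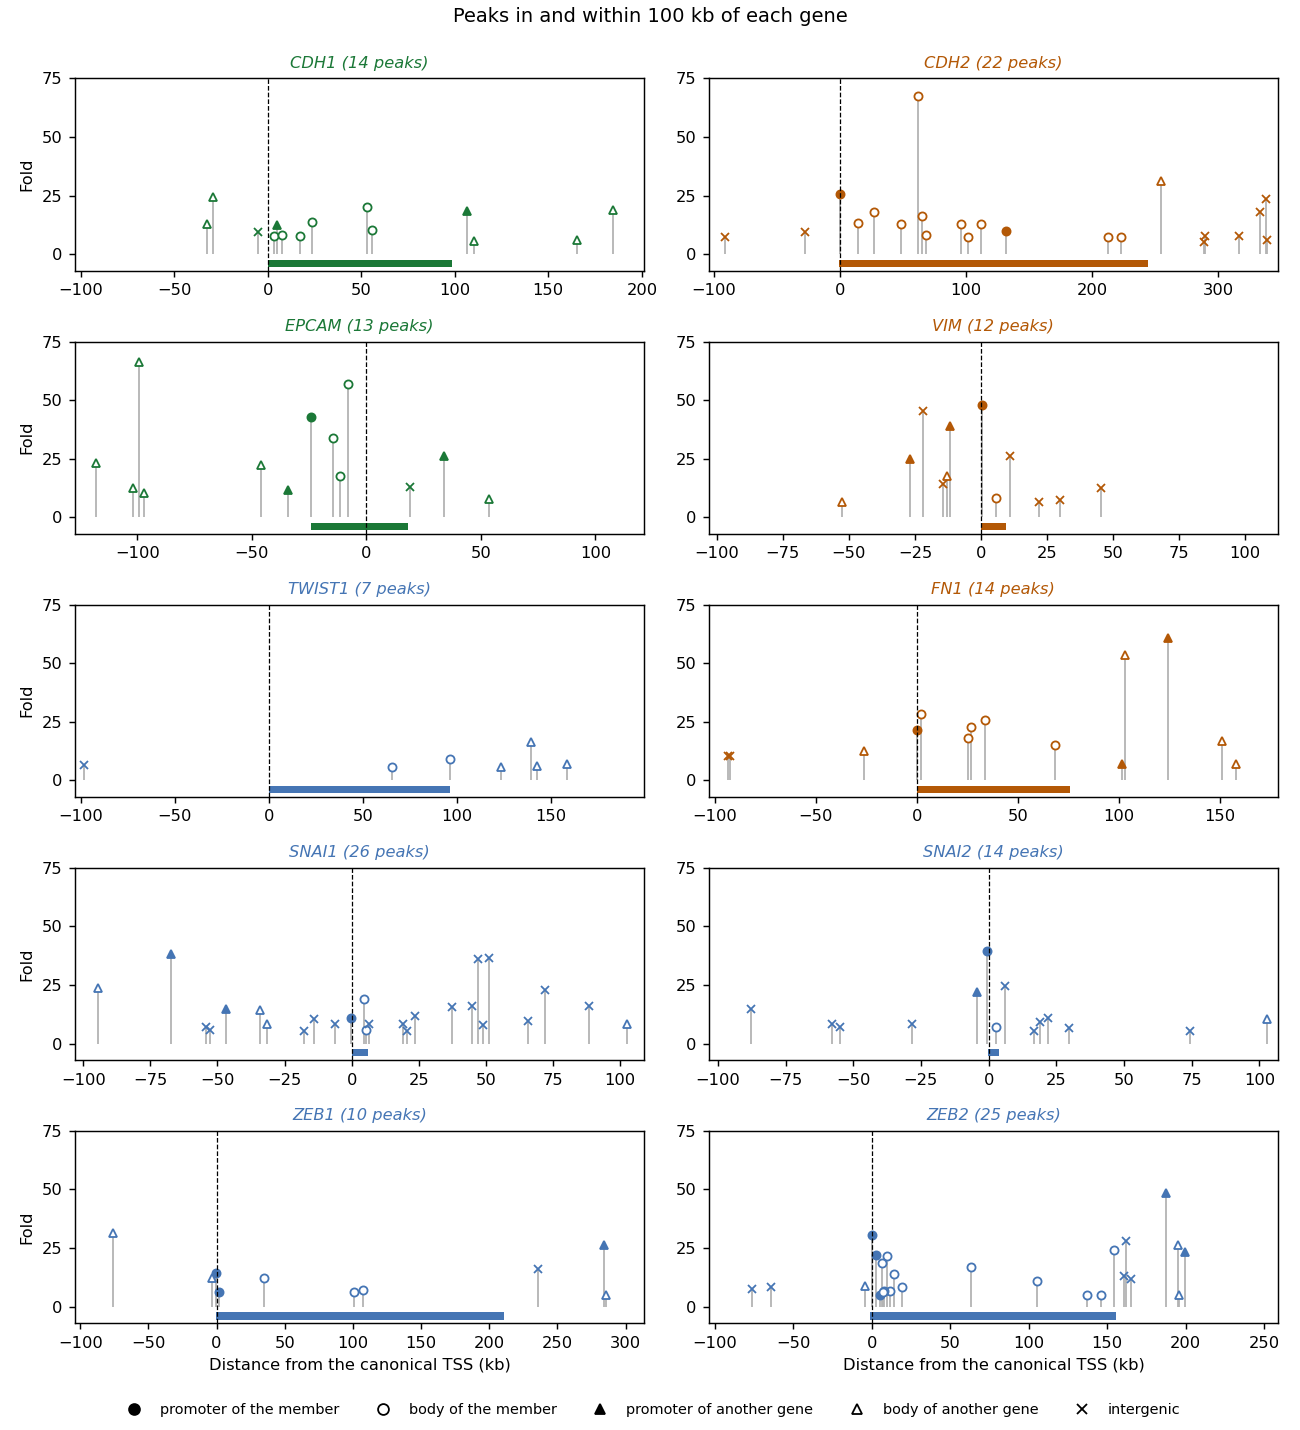
All 157 peaks of the 10 genes by distance of the summit from the canonical TSS (horizontal axis, kb, negative upstream of that TSS) and fold enrichment (vertical axis), 1 panel per gene. Symbols give the class of each peak and the bar below them the extent of the gene. The strongest peaks of CDH2 and EPCAM lie far from the canonical TSS, SNAI1 has 26 peaks and TWIST1 has 7, none of them above a fold of 16.5.

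Of the 157 peaks, 12 lay at the promoter and 46 in the body of a member gene, 14 at the promoter and 33 in the body of another gene, and 52 in intergenic DNA. Counted without regard to which gene, 26 lay at a promoter, 16.6% against 19.4% of all peaks. Intergenic peaks were concentrated around SNAI1, with 17, SNAI2, with 10, and CDH2, with 8. ZEB2 had 12 body peaks and CDH2 had 11.

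Among the transcription factor genes the promoter peaks covered a wide range. SNAI2, which encodes the zinc finger repressor SLUG, lies on chromosome 8 (48917598 to 48921740, minus strand). Its promoter peak at −459 bp had a fold of 39.7 (31.4 to 49.5), the 82.9 percentile, and a width of 2384 bp, wider than 95.3% of promoter peaks. The only summit inside the gene, at 2614 bp in an exon, had 7.21 (4.08 to 12.0). Peaks at 6079 bp and −4354 bp flanked the gene with 24.7 (18.3 to 32.7) and 22.2 (16.1 to 29.8), and the other peaks of its 14 stayed at or below 14.9.

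SNAI1 encodes SNAIL, the paralog of SLUG, on chromosome 20 (49982980 to 49988886, plus strand). Its promoter peak was the weakest of the 8, with 10.8 (6.81 to 16.4) at −198 bp and the 27.1 percentile of promoter peaks. The counting intervals of the SNAI1 and SNAI2 promoter peaks did not overlap. Inside the gene, peaks at 4472 bp and 5385 bp had 19.1 (13.5 to 26.2) and 5.67 (2.99 to 9.99). SNAI1 nevertheless had the most crowded surroundings, with 26 peaks or 12.6 per 100 kb, at the 97.9 percentile of protein-coding genes. Of the 26, 24 lay outside the gene. The wider region was also dense, with 547 peaks within 5 Mb of the canonical TSS, against 176 to 445 for the other genes. Downstream, intergenic peaks at 47102 bp and 51165 bp had 36.1 (28.2 to 45.5) and 36.6 (28.6 to 46.1), close to the strongest of the window, 38.1 (30.0 to 47.8) at the promoter of SPATA2. Whether these sites act on SNAI1 was not tested. Unlike those of the mesenchymal markers, its promoter was both in a peak and held E-boxes, 3 in all.

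ZEB1 and ZEB2 encode large zinc finger and homeodomain repressors. ZEB1, on chromosome 10 (31318495 to 31529814, plus strand), had a promoter peak of 14.4 (9.68 to 20.8) at −326 bp, the 37.2 percentile, shared with the antisense gene ZEB1-AS1. A second promoter peak at 1511 bp had 6.18 (3.34 to 10.7), and the strongest body peak, intronic at 34464 bp, had 12.4 (8.03 to 18.3). The strongest of its 10 peaks lay at −76133 bp in non-coding genes, with 31.4 (24.1 to 40.3). Its window held 2.43 peaks per 100 kb, at the 24.3 percentile of protein-coding genes. Its promoter held 4 E-boxes, at −856, −242, −85 and 33 bp.

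ZEB2, on chromosome 2 (144364364 to 144521057, minus strand), had 3 promoter peaks over its several start sites. The strongest had 30.4 (23.2 to 39.2) at −105 bp, the 70.9 percentile, and was shared with ZEB2-AS1. The others had 22.2 (16.1 to 29.8) at 2433 bp and 5.15 (2.64 to 9.32) at 5052 bp. Of all 10 genes ZEB2 held the most summits inside, 15, of which 6 were exonic and 9 intronic, and the strongest body peak had 24.2 (17.9 to 32.1) at 154583 bp in an exon. Its 25 peaks, 7.01 per 100 kb, were at the 76.1 percentile. The strongest of the window, 48.4 (39.2 to 59.2), lay at the promoter of the neighbour GTDC1. The promoter interval of ZEB2 lay above that of ZEB1 without overlap, and its promoter held 0 E-boxes.

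TWIST1 encodes a basic helix-loop-helix factor, on chromosome 7 (19020991 to 19117636, minus strand), and had the fewest listed peaks of the 10 genes. It had no promoter peak, the nearest summit was 65614 bp from its canonical TSS, and only 8.15% of protein-coding genes had a more distant one. Around the TSS, 163 kb held no listed peak. In that stretch 3 peak numbers were absent, so 3 numbered peaks there are not in the list, and where they lay is unknown. Absent numbers fell in such a stretch for 39.6% of protein-coding genes whose canonical TSS was in no peak. The 2 summits inside the gene record lay in the reach of long transcripts and had folds of 9.28 (5.62 to 14.5) and 5.67 (2.99 to 9.99). The strongest of the 7 peaks of the window lay in the neighbour HDAC9, with 16.5 (11.4 to 23.2). The 200 bases before its TSS, shown as the transcription factor promoter that lay in no peak, held 0 E-boxes at 55.5% G+C.
TWIST1, chr7:19117637-19117836, minus strand: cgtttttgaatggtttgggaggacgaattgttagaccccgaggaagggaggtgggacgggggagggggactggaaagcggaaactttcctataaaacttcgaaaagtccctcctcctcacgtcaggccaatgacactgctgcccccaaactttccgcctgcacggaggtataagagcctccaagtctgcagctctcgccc

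The G+C content of the uncovered promoters lay inside the range of the covered ones, and a relation to coverage was not tested. The G+C content of the promoter was above the genome median of 54.6% for 7 of the 10 genes, and the canonical TSS lay in a peak for 4 of these 7, against 66.7% of all genes above the median. The uncovered CDH1, EPCAM and TWIST1 promoters had 58.5%, 55.1% and 63.6%. The covered VIM and ZEB2 promoters had less, 42.1% and 46.1%. This split by G+C was chosen after the data were seen.

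The E-box count varied widely between the promoters. CDH1 had 6, EPCAM 4, ZEB1 4, SNAI1 3, SNAI2 1 and the others none. Promoters with 4 or more made up 4.11% of protein-coding genes and included 3 of the 10 genes, CDH1, EPCAM and ZEB1, a threshold set after the counts were seen. Promoters with none made up 38.4% of protein-coding genes and 5 of the 10, CDH2, VIM, FN1, ZEB2 and TWIST1. Only 0.534% of genes had 6 or more. The canonical TSS was in no peak for 2 of the 3 genes with 4 or more, CDH1 and EPCAM, and for 1 of the 7 with fewer, TWIST1. Over all protein-coding genes it lay in a peak for 57.8%. The share for all genes with 4 or more E-boxes is not given, so these few genes show no difference by count. A relation between count and accessibility was not tested. A match says only that these letters are present, and binding of a factor was not measured.

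Around the summits, most motifs searched had shares near those of all summits. Within 50 bp, 14 of the 157 summits (8.92%, exact binomial 95% interval 4.96 to 14.5) held the E-box CAGGTG, against 7.30% of all 88615 summits on primary chromosomes. TGAGTCA, the site of the AP-1 factors, was near 29 summits (18.5%, 12.7 to 25.4) against 15.7%. GGAATG, the site of the TEAD factors of the Hippo pathway, was near 16 (10.2%) against 9.41%, and TGTGGT, the RUNX site, near 20 (12.7%) against 12.6%. ACGTG or GCGTG, the core of the hypoxia response element bound by HIF, was near 32 (20.4%, 14.4 to 27.5) against 16.0%. The CTCF motif was near 4 (2.55%) against 2.23%, and GTCTAGAC, a SMAD palindrome, near 1 (0.637%, 0.0161 to 3.50) against 0.0937%, a higher share that rests on a single summit near CDH2. All were searched on both strands, and peaks around 1 gene are not independent.

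Of the distal peaks that held an AP-1 site, those of highest fold are shown as 101 bases around each summit. Capitals mark TGAGTCA or its reverse complement TGACTCA. Names give the gene and the distance of the summit from its canonical TSS, and each run is read along the strand of the gene in hg38.
CDH2 at 61825 bp, chr18:28115255-28115355, minus strand: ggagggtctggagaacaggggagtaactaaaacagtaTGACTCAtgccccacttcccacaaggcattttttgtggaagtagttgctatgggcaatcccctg
EPCAM at −99375 bp, chr2:47269886-47269986, plus strand: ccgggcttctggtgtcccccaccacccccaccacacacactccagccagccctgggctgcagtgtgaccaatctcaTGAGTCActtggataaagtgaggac
EPCAM at −8223 bp, chr2:47361038-47361138, plus strand: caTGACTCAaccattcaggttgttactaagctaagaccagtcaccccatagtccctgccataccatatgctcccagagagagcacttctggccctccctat
EPCAM at −14578 bp, chr2:47354683-47354783, plus strand: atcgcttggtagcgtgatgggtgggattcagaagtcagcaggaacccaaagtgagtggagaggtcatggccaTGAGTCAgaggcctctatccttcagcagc
FN1 at 102954 bp, chr2:215333064-215333164, minus strand: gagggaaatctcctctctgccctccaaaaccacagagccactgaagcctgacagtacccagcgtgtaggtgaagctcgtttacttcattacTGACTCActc
Their folds were 67.5, 66.5, 56.7, 34.0 and 53.6 in this order. They are the 5 of highest fold among the peaks outside promoters that held the motif, so they hold it by selection. They came from the windows of EPCAM, CDH2 and FN1, most of them from that of EPCAM. The share of AP-1 sites over all 157 summits was the one given before. Outside promoters, 25 of 131 member summits (19.1%) held the site, against 18.0% of all such summits.

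Other genes of the transition were counted by lists of textbook markers. A promoter peak was present for 14 of 25 other epithelial genes (56.0%, 34.9 to 75.6), 19 of 30 other mesenchymal genes (63.3%, 43.9 to 80.1) and 11 of 18 other transcription factors (61.1%, 35.7 to 82.7). All 3 intervals include the 61.4% of all protein-coding genes. The difference between CDH1 or EPCAM and the mesenchymal markers at their canonical start sites was not seen to this extent in the lists. There the canonical TSS lay in a peak for 12 of 25 epithelial genes (48.0%, 27.8 to 68.7) and 19 of 30 mesenchymal genes (63.3%, 43.9 to 80.1). These intervals overlap, and both include the 57.8% of all protein-coding genes. The median fold of the promoter peaks was 20.9, 29.4 and 21.1.

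**Figure D4:**
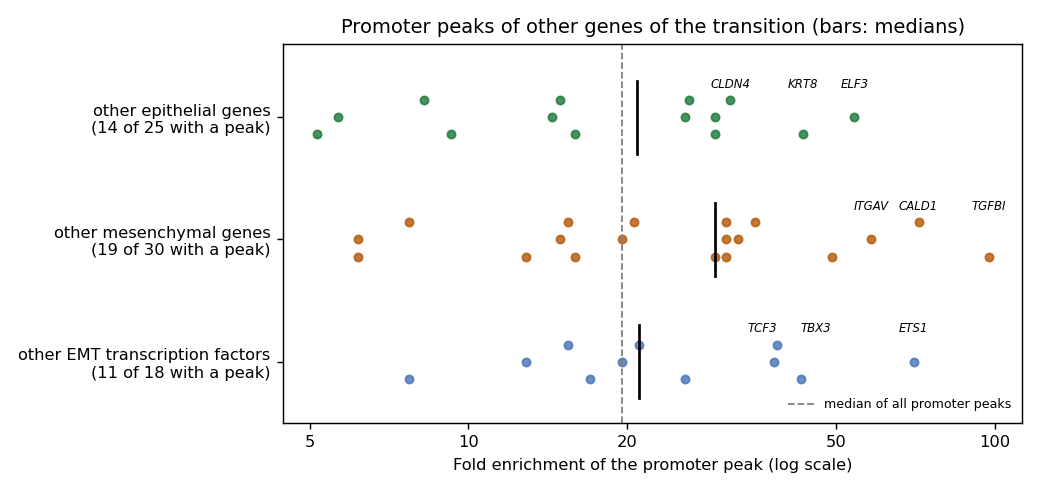
Fold enrichment (horizontal axis, log scale) of the strongest promoter peak of each gene in the 3 lists of other protein-coding genes, 1 point per gene with a peak, black bars at the list medians of 20.9, 29.4 and 21.1. The dashed line is the median of all promoter peaks, 19.6, and the points of the 3 lists overlap over most of the range.

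Some epithelial promoters were strongly accessible. ELF3, an epithelial ETS factor, had 54.1 (44.3 to 65.4), KRT8, a keratin of simple epithelia, 43.3 (34.6 to 53.5), and CLDN4, a claudin of tight junctions, 31.4 (24.1 to 40.3). Of the 11 without a promoter peak the first in the alphabet were CLDN7, DSP, ESRP1, ESRP2 and MARVELD2. They include 2 regulators of epithelial splicing and components of tight junctions and desmosomes. The listed summit nearest to the canonical TSS of MARVELD2 lay 225461 bp away. Poorly mapped reads had been removed, and whether reads could be placed around this gene was not tested.

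On the mesenchymal list TGFBI, an extracellular matrix protein induced by TGF-β, had 97.4 (84.0 to 112), CALD1, the actin-binding caldesmon, 71.6 (60.3 to 84.5), and ITGAV, the integrin αV, 58.2 (48.0 to 70.0). These exceeded the fold of VIM, and for the first and second the intervals did not overlap. The 11 without a promoter peak began with ACTA2, CDH11, DCN, FAP and LUM, among them typical genes of fibroblasts. Of the other transcription factors ETS1 had 70.1 (58.8 to 82.9), at the start of a transcript other than the canonical one, TBX3 42.8 (34.1 to 53.0) and TCF3 38.6 (30.5 to 48.4). FOXC2, FOXQ1, GSC, KLF8 and PRRX1 were the first of the 7 without a promoter peak, although the canonical TSS of FOXC2 did lie inside a peak.

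The miR-200 microRNAs keep cells epithelial by repressing ZEB1 and ZEB2. Their mature sequences are printed because their seeds, bases 2 to 8 in capitals, form 2 families that differ at a single base of the seed. The sequences are from RefSeq (GRCh38.p14).
hsa-miR-200b-3p: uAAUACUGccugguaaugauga
hsa-miR-200c-3p: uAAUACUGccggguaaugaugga
hsa-miR-429: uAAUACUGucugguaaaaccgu
hsa-miR-141-3p: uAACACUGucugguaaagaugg
hsa-miR-200a-3p: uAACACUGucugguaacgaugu
The seed AAUACUG was shared by 3 of them and AACACUG by 2.

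None of the 5 microRNA genes nor the host gene MIR200CHG, 0 of 6 (exact binomial 95% interval up to 45.9%), had a promoter peak. They form only 2 loci, and a promoter peak was present for 11.2% of all microRNA genes and 21.9% of all long non-coding RNA genes, so 0 is near the background. Since the annotated start of a microRNA gene is the start of its hairpin and not of its primary transcript, the nearest peaks are given as well. The chromosome 12 cluster, with MIR200C and MIR141, had its nearest peak (6961250 to 6962340) at −1143 bp from the start of MIR200CHG with 15.5 (10.5 to 22.0). That summit was just outside the promoter as defined. The chromosome 1 cluster had a peak (1164544 to 1166515) at −2197 bp from MIR200B with 23.7 (17.4 to 31.5) and another at 1525 bp from MIR429 with 5.67 (2.99 to 9.99). Both clusters thus had a peak a short way upstream, with folds on either side of the promoter median of 19.6. Whether these peaks hold the start of the primary transcripts was not tested.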

How the data were processed

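The data were the ATAC-seq peak list of 1 library of 786-O cells with an empty vector. Per the study's methods and the processing notes of the submitters, the authors used fastp for trimming and Bowtie2 2.3.4.3 for alignment to hg38, removed mitochondrial, poorly mapped and duplicate reads, and called peaks with MACS2 2.2.6 against a genome-wide background. A shift for Tn5 insertion is not given in the sources used here, so summits may be displaced by some bases. The deposited ratio is the fold enrichment at the summit, the deposited −log10 p-value and −log10 q-value are those of the peak caller, and the score, also deposited, is that q-value term times 10. The lowest score was 52, and 20.3% of the peak numbers were absent, so the list had been filtered after the peaks were numbered. Pileups were recovered from the folds as whole numbers to within 1.69e-05.

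Summits were assigned to genes with GENCODE release 44. The canonical transcript is the one tagged so there. Of the 88676 peaks, the 88615 on the 24 primary chromosomes were used. Promoters were the 1 kb before and 100 bp after the TSS of every transcript. Percentiles rank a promoter peak among all promoter peaks, or a gene among all protein-coding genes. A gene with several promoter peaks is represented by its strongest, while the reference holds every promoter peak. Its percentile therefore leans upward, as does its fold when set beside the median of all promoter peaks. Shares carry exact (Clopper-Pearson) and folds exact Poisson 95% intervals. The genes named were the 10 members, with their strongest promoter, body and window peaks, and from each list the 3 of highest promoter fold and the first 5 in the alphabet without a promoter peak. Additional genes are those next to or under a member's peak, and CDH16, which was named outside this rule after its value was seen. The 10 genes, the lists and the motifs were chosen with earlier results of these data known. A gene next to a member and some promoter sequences are not reported here. Alternatives were stricter scores, narrower windows, other promoters, the canonical transcript alone and wider motif windows. The functions were tested on simulated data. Python 3.11.15 with numpy 2.4.6, pandas 2.3.3, scipy 1.17.1, pysam 0.24.0 and matplotlib 3.10.9 was used.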

Additional observations from a re-analysis of the deposited data

How the results depend on the processing

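The number of the 10 genes with a promoter peak stayed between 6 and 9 under every alternative tried. CDH1 gained a promoter peak, through a transcript other than the canonical one, when the promoter reached 2.5 kb to both sides, and SNAI1 lost its own at a score above 200. The share of mesenchymal minus epithelial genes with a promoter peak, 50 percentage points, became 0 with promoters of 2.5 kb to both sides, 66.7 with the canonical transcript alone and 100 when the peak interval had to cover the canonical TSS, an alternative chosen after seeing the data. It rests on 2 and 3 genes. Peaks per 100 kb around the 10 genes, 5.33, became 4.01 at a score above 100, 2.82 at a score above 200 and 6.54 with windows of 20 kb. The number of peaks, 157, became 83 at a score above 200 and 88 with windows of 20 kb. These follow from fewer peaks or shorter windows. The density ratio of mesenchymal to epithelial windows, 1.03, ranged from 0.779 to 0.978 under 4 alternatives, so its direction is not fixed. Ranked against all peaks within 5 Mb, at promoters or not, every promoter percentile was higher. Those of CDH2, FN1, VIM, ZEB1 and ZEB2 became 88.0, 71.2, 96.6, 62.2 and 94.9. Those of SNAI1, SNAI2 and EPCAM became 47.9, 86.6 and 91.7. The median fold of all peaks, 10.8, is below that of promoter peaks, 19.6. Among promoter peaks of the same chromosome CDH2 rose to 73.0 and the others fell. FN1, VIM, ZEB1 and ZEB2 came to 46.2, 86.7, 34.7 and 61.6. SNAI1, SNAI2 and EPCAM came to 25.4, 74.3 and 80.7. No paired analysis was possible because a single library was analysed. The total read depth is unknown, and a gene without a listed peak may have a peak that was called and then removed, or signal below the caller's threshold. In the stretch around the canonical TSS, 0 peak numbers were absent for CDH1, 0 for EPCAM and 3 for TWIST1.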
